A study of Mus musculus with 48 samples.

Results

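Zfp36, Zfp36l1 and Zfp36l2 encode the CCCH zinc finger proteins of the tristetraprolin family. Their mRNAs were followed in mouse fibroblast lines in which transcription had been stopped with actinomycin D. The members were chosen by annotation alone: every probe set of the array whose platform annotation gives one of these symbols and no other. That rule found 6 probe sets for the 3 genes among the 45037 probe sets of the array that are not controls. All 6 passed the filter on low signal, which kept 27500 probe sets. Zfp36 has 1 probe set (1452519_a_at), Zfp36l1 has 2 (1450644_at and 1422528_a_at) and Zfp36l2 has 3 (1437626_at, 1451034_at and 1439054_at). The probe set with the highest mean signal of each gene is called its main probe set (1452519_a_at, 1450644_at and 1437626_at).

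Both cell lines came from littermate E14.5 mouse embryos, from whole embryos without head and organs, of Zfp36 +/- parents of strain 129/B6. One line is Zfp36 +/+ (WT) and the other is Zfp36 -/- (KO), apparently 1 line of each, so that the loss of Zfp36 and any other difference between the lines cannot be told apart. In every group the cells had been held in 0.5% serum for 16 h and then given 10% serum for 90 min. Actinomycin D blocks RNA synthesis and was added next, with RNA taken at 0, 30, 60, 90 and 120 min of the drug, each sample from 3 combined dishes. The dose of the drug is given as 0.5 µg/ml in the sample names and as 5 µg/ml in the series text and 5 mg/ml in the treatment protocol, and which is right could not be settled here. On each of 5 days the whole course was run with both lines, so that a replicate number stands for 1 day's experiment. Each of the 10 groups of line and time holds 5 arrays, except KO at 0 min (4 arrays, without experiment 5) and KO at 60 min (4 arrays, without experiment 4). The p-values therefore measure the spread between experiments on these lines, not between embryos. Samples of serum-deprived cells are not analysed here, so the induction of these genes by serum was not measured.

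Values are the deposited log2 signals. The 48 arrays had medians between 8.47 and 8.56, and their 5th percentiles reached 8.13, which is used as the floor: a mean at or below it carries no measurable signal. Of 10 fibroblast markers 9 lay above the array median in mean signal, collagen and Vim among them, and Thy1 (mean 8.10) lay at the floor. The summed linear signal of these markers ran from 30350 to 35589 over WT arrays and from 29671 to 34630 over KO arrays. Of the markers of other cell types, the endothelial ones had 0 of 4 above the median, the epithelial and muscle ones 1 of 4 each, the macrophage and blood ones 1 of 5 (Csf1r) and the neural ones 4 of 4. The summed signal of the neural list was higher in KO (1887 to 2178) than in WT (1557 to 1850). At 0 min 1 of its 4 genes was called higher in KO, Tubb3, by 0.86 (limma adjusted p = 2.46e-12), and 3 were not called. The list median at that time was 0.056, against 0.014 over all genes. The part of these differences in the values of the TTP family was not tested.

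Tristetraprolin (TTP), the product of Zfp36, binds AU-rich elements in the 3′ untranslated regions of short-lived mRNAs through its tandem zinc fingers and recruits the CCR4-NOT deadenylase, which shortens the poly(A) tail and starts decay. The proteins of Zfp36l1 and Zfp36l2 carry closely related zinc fingers and bind the same kind of element. Zfp36 is an immediate-early gene, transcribed within minutes of serum or growth factor addition, and its own mRNA carries AU-rich elements. Mice without TTP are known for systemic inflammation through excess tumour necrosis factor, and the loss of either paralogue gives other phenotypes in mice.

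The promoters are shown as a description of the genes. Their part in the differences between the members was not tested. RefSeq windows of 250 bases upstream of the transcription start (assembly GRCm38.p6) were matched for 2 of the 3 members, Zfp36 and Zfp36l1; Zfp36l2 is named only. Zfp36 lies at chr7:28376784-28379228, Zfp36l1 at chr12:80107760-80113013 and Zfp36l2 at chr17:84183924-84187947, all 3 in that assembly. Both windows lie upstream of genes on the minus strand and are printed 5′ to 3′ in the direction of transcription, and capitals mark matches to 4 motifs that were searched on both strands.
Zfp36 (chr7:28379229-28379478, minus strand): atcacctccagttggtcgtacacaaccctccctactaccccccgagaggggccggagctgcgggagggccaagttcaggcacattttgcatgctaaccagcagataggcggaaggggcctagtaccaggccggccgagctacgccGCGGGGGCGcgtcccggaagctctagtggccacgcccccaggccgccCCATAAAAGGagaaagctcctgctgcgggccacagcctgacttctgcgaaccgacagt
Zfp36l1 (chr12:80113014-80113263, minus strand): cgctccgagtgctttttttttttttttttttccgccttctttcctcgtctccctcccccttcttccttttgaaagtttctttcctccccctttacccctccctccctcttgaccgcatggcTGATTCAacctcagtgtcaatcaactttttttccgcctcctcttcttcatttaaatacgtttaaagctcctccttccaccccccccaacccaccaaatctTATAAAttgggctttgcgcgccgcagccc

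In the Zfp36 window the CArG box, the binding motif of serum response factor, was matched by CCATAAAAGG at 58 to 49 bases upstream of the start. The EGR element GCGGGGGCG, bound by early growth response factors, was matched at 105 to 97 bases upstream. The Zfp36l1 window held neither of these. It held a match to the AP-1 motif TGANTCA, at 129 to 123 bases upstream, and one to the TATA box TATAAA, at 29 to 24 bases upstream. None of the 4 matched stretches overlapped another. Among 32851 mouse promoter windows of the same length a CArG box was found in 1.47%, the EGR element in 2.57%, TGANTCA in 6.75% and TATAAA in 12.4%. These matches describe letters in the windows and say nothing of binding in these cells.

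Zfp36 mRNA, the message of TTP itself, was the member that fell at once. In WT its signal fell by 1.12 ± 0.085 (log2, estimate ± SE) in the first 30 min of actinomycin D (2.17-fold; limma adjusted p = 1.39e-13), and in KO by 0.85 ± 0.090 (1.80-fold; adjusted p = 5.28e-09). Of the 6 probe sets, only that of Zfp36 passed the threshold of 0.05 in this interval, in either line. Over all probe sets tested, 1.77% fell in WT and 1.25% in KO. Only 12 of the 27500 probe sets had a lower estimate for this interval in WT, and 13 in KO.

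The single arrays show the course of Zfp36. In WT at 0 min the 5 experiments, in order, gave 9.84, 10.14, 9.83, 9.69 and 9.83. At 30 min they gave 8.68, 9.26, 8.80, 8.52 and 8.46. The groups at these times did not overlap, and experiment 2 was the highest at both. WT signals at 60 min lay between 8.18 and 8.40, at 90 min between 8.09 and 8.19 and at 120 min between 8.06 and 8.29, next to the floor of 8.13. In KO at 0 min experiments 1 to 4 gave 9.60, 9.58, 9.28 and 9.59, so that experiment 3 stood below the other 3. At 30 min the 5 KO arrays gave 8.69, 8.86, 8.64, 8.68 and 8.47, all below every KO array of 0 min. KO signals at 60 min lay between 8.21 and 8.40, at 90 min between 8.12 and 8.24 and at 120 min between 8.05 and 8.15.

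**Figure D1:**
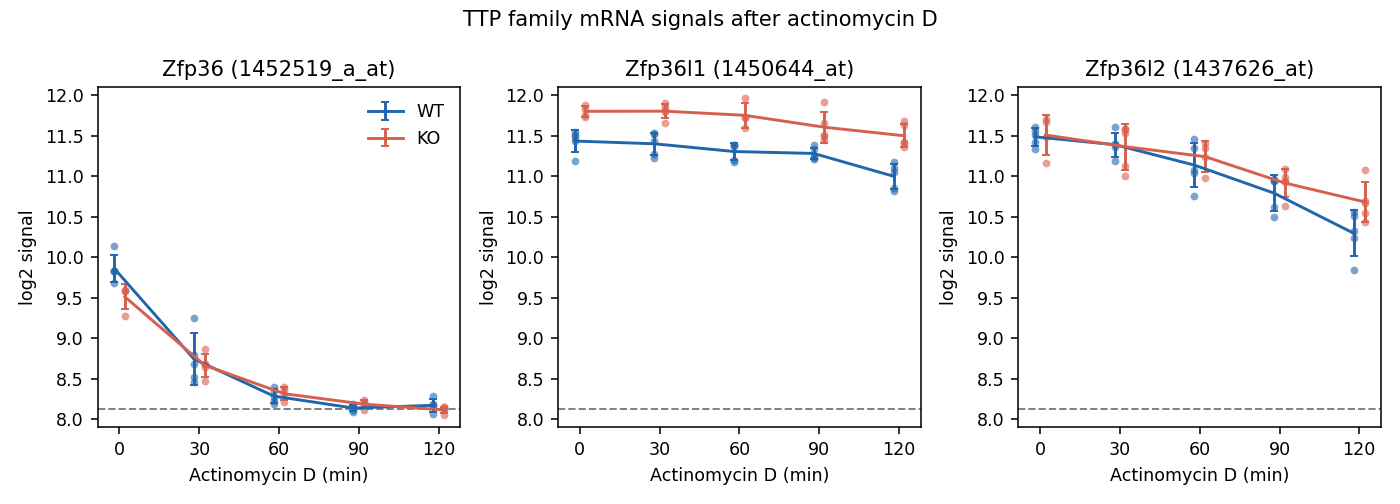
Log2 signal (vertical axis) of the main probe set of Zfp36, Zfp36l1 and Zfp36l2 against minutes of actinomycin D (horizontal axis) in WT (blue) and KO (orange); points are arrays, lines join group means, bars are 1 SD and the dashed line is the floor of 8.13. Zfp36 drops until it lies next to the floor in both lines, Zfp36l1 stays near its starting signal with KO above WT throughout, and Zfp36l2 falls mostly after 30 min.

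Means ± SD of Zfp36 in WT were 9.86 ± 0.16 at 0 min and 8.74 ± 0.32 at 30 min, then 8.29 ± 0.086 at 60 min, 8.14 ± 0.038 at 90 min and 8.17 ± 0.080 at 120 min (n = 5 each). In KO they were 9.51 ± 0.16 (n = 4), 8.67 ± 0.14 (n = 5), 8.32 ± 0.083 (n = 4), 8.19 ± 0.046 (n = 5) and 8.12 ± 0.039 (n = 5). The last of these lies under the floor, so the fall over 120 min in KO was at least 2.60-fold. In WT it was 3.23-fold, with a mean just above the floor. Ordered by mean, only the first 4 of the 10 groups (WT and KO at 0 min, then WT and KO at 30 min) lay clearly above the rest, and WT and KO at 30 min overlapped.

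After 30 min too little Zfp36 signal was left above the floor for a later rate of decline to be set against that of the first 30 min. Read as signal alone, the first 30 min correspond to a halving every 26.8 min in WT and 35.5 min in KO. Unspecific signal lengthens such a time, and with each array's 5th percentile subtracted the same interval gave halvings every 14.1 min in WT and 17.4 min in KO. On that scale 22.9% of the starting Zfp36 signal was left at 30 min in WT and 30.4% in KO. No share is given for 120 min, where the signal of both lines lay next to the floor.

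The signal of Zfp36 before the drug differed between the lines. At 0 min KO lay 0.35 ± 0.090 below WT (1.28-fold; limma adjusted p = 0.00245), lower in 4 of 4 experiments by 0.097 to 0.55, and no KO array reached the lowest WT array. Among all probe sets 11.9% were called lower in KO at that time and in 8.34% every KO array lay below every WT array. Without experiment 3, whose KO array was the low one, the difference was -0.28 and its adjusted p 0.0551. In experiments 4 and 5 alone, where KO at 0 min has only the array of experiment 4, it was -0.17. With each array's 5th percentile subtracted the estimate was wider, -0.52 ± 0.29, and did not pass (adjusted p = 0.211). From 30 min on, the Zfp36 difference between the lines was between -0.076 and 0.048, with adjusted p from 0.575 to 0.891. The sources used here give neither the disrupted part of Zfp36 nor the place of this probe set within the gene, so its signal in KO does not check the label of the line, and it does not show whether the RNA could make TTP.

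The test of the difference in decay itself did not pass for Zfp36. From 0 to 30 min KO fell less than WT by 0.28 ± 0.12 (95% interval 0.026 to 0.52; unadjusted p = 0.0312, limma adjusted p = 1.00). For the slope over 0 to 120 min the difference was 0.17 ± 0.12 log2 per h (95% interval -0.077 to 0.41; adjusted p = 0.746). KO started 0.35 lower and both lines lay next to the floor at 90 and 120 min, so this slope difference also carries the difference at 0 min, and it shows neither a like nor an unlike decay.

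Zfp36l1, a paralogue known for roles in development and in lymphocytes, fell the least of the 3 main probe sets and stood higher in KO throughout. Its main probe set was higher in KO at all 5 times, by 0.37 ± 0.086 at 0 min (1.29-fold; limma adjusted p = 0.000922), 0.40 ± 0.081 at 30 min (1.32-fold; 0.000117), 0.45 ± 0.086 at 60 min (1.36-fold; 6.82e-05), 0.32 ± 0.081 at 90 min (1.25-fold; 0.00165) and 0.50 ± 0.081 at 120 min (1.41-fold; 3.27e-06). Every KO array lay above every WT array of the same time, and in the paired experiments KO was higher in 23 of 23 pairs. Among all probe sets a complete separation in this direction was found in 9.62% at 0 min, 8.93% at 30 min, 9.81% at 60 min, 9.99% at 90 min and 12.7% at 120 min. The 5 comparisons use the same lines and experiments and are not independent of each other.

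In WT at 0 min the 5 arrays of Zfp36l1 gave 11.44, 11.19, 11.49, 11.51 and 11.55. In KO experiments 1 to 4 gave 11.73, 11.83, 11.76 and 11.88. Experiment 2 was the lowest WT array and had the widest gap between the lines at this time, 0.64. At 120 min the WT arrays gave 10.82, 11.05, 11.10, 10.86 and 11.18, and the KO arrays 11.42, 11.41, 11.36, 11.63 and 11.68. The lowest KO array at 120 min thus stood above every WT array of that time and within the range of WT at 0 min.

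Means of Zfp36l1 in WT were 11.44 ± 0.14, 11.40 ± 0.14, 11.31 ± 0.11, 11.28 ± 0.073 and 11.00 ± 0.16 from 0 to 120 min (SD, n = 5 each). In KO they were 11.80 ± 0.069 (n = 4), 11.80 ± 0.091 (n = 5), 11.75 ± 0.15 (n = 4), 11.61 ± 0.19 (n = 5) and 11.50 ± 0.14 (n = 5). Ordered by mean, the 5 KO groups came first and the 5 WT groups after them, with KO at 120 min and WT at 0 min next to each other and overlapping. Only WT at 120 min was apart in its arrays from its neighbour in that order, WT at 90 min.

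Zfp36l1 did not pass in the first 30 min in either line, with estimates of -0.034 in WT and 0.0023 in KO (adjusted p 1.00 and 0.997). From 30 to 120 min it fell by 0.40 ± 0.081 in WT (1.32-fold; limma adjusted p = 0.000251) and by 0.30 ± 0.081 in KO (1.23-fold; adjusted p = 0.00831). In that interval 4 of the 6 probe sets of the family fell in WT, where 9.77% of all probe sets did, and 3 of 6 fell in KO, where 7.29% did. The KO call for Zfp36l1 was lost without experiment 2 (adjusted p = 0.0589) and without experiment 3 (adjusted p = 0.0857). The fall over the whole 120 min was 0.44 ± 0.081 in WT (1.35-fold; adjusted p = 4.28e-05) and 0.30 ± 0.086 in KO (1.23-fold; adjusted p = 0.00788), the latter also lost without experiment 2 (adjusted p = 0.0623) or 3 (adjusted p = 0.0618).

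As straight lines over 120 min, Zfp36l1 fell by 0.20 log2 per h in WT, a halving every 303 min, and by 0.16 in KO, a halving every 364 min, both longer than the time observed. The slopes differed by 0.033 ± 0.053 log2 per h (95% interval -0.074 to 0.14; limma adjusted p = 0.90). With the 5th percentile subtracted, 71.0% of the starting Zfp36l1 signal was left at 120 min in WT and 79.6% in KO. The gap between the lines was thus present before the drug, at 0.37, and stood at 0.50 after 120 min of it.

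**Figure D2:**
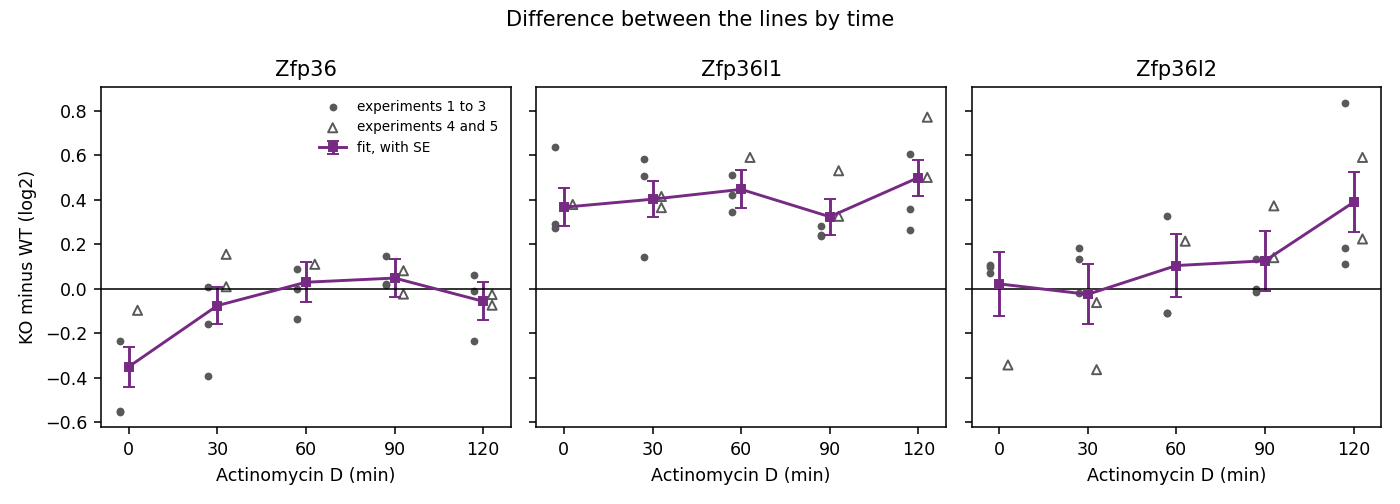
Difference KO minus WT in log2 signal (vertical axis) of the 3 main probe sets at each time of actinomycin D (horizontal axis, min); small symbols are the single experiments, circles for 1 to 3 and triangles for 4 and 5, and squares with bars are the fitted difference and its SE. Zfp36 lies below 0 in 4 of 4 pairs at 0 min, Zfp36l1 lies above 0 in each of the 23 pairs, and Zfp36l2 lies above 0 in 5 of 5 pairs at 120 min.

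The second probe set of Zfp36l1, 1422528_a_at, gave the same direction with a wider spread. It was higher in KO by 0.43 ± 0.15 at 0 min (limma adjusted p = 0.0258), 0.50 ± 0.14 at 30 min (0.00556), 0.42 ± 0.15 at 60 min (0.0329) and 0.42 ± 0.14 at 120 min (0.0174), and the 90 min estimate was 0.22 ± 0.14 (adjusted p = 0.293). The arrays of the lines overlapped at 0, 30 and 90 min and were apart at 60 and 120 min. Leaving out single experiments lost its call at 0 min and at 60 min in 3 of 5 cases each, at 120 min in 2 of 5 (without experiment 1 or 4; adjusted p up to 0.108) and at 30 min in 1 of 5 (without experiment 3; adjusted p = 0.0951). As a straight line over 120 min it fell by 0.19 ± 0.064 log2 per h in KO (adjusted p = 0.0196), a call lost without experiment 1, 2 or 4 (adjusted p up to 0.131), and the WT slope was -0.13 ± 0.061 (adjusted p = 0.117). Between single times it passed no change within the lines, with 0 to 120 min estimates of -0.33 in WT (adjusted p = 0.0830) and -0.34 in KO (adjusted p = 0.0958). These passed without experiment 2 in WT (-0.45; adjusted p = 0.0488) and without experiment 3 in KO (-0.53; adjusted p = 0.0160). Fitted with the experiment as a block they also passed, at -0.33 in WT (adjusted p = 0.0342) and -0.39 in KO (adjusted p = 0.0197), as did the KO change from 30 to 120 min (-0.36; adjusted p = 0.0353).

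**Figure D3:**
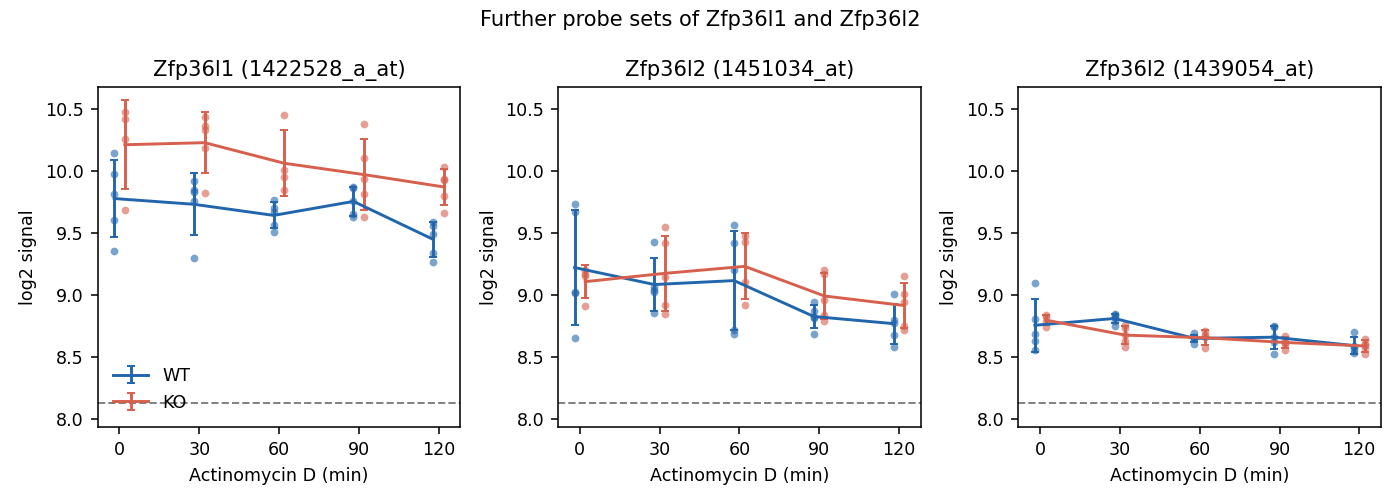
Log2 signal (vertical axis) of the further probe sets of Zfp36l1 (1422528_a_at) and Zfp36l2 (1451034_at and 1439054_at) against minutes of actinomycin D (horizontal axis), drawn as for the main probe sets. The arrays of WT and KO overlap at all 5 times in both probe sets of Zfp36l2, while KO lies above WT in the mean of 1422528_a_at at all 5 times.

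Zfp36l2, the paralogue known for its need in oocytes and blood progenitors, was called as falling from 30 to 120 min and not in the first 30 min. Its main probe set had estimates of -0.097 in WT and -0.14 in KO for the first 30 min (limma adjusted p 1.00 and 0.851). From 30 to 120 min it fell by 1.10 ± 0.14 in WT (2.14-fold; adjusted p = 2.02e-08) and by 0.68 ± 0.14 in KO (1.60-fold; adjusted p = 0.000262). The later interval is the longer one. A test of the rate per h after 30 min minus that before it was added after the values were seen. It gave -0.54 ± 0.32 in WT (limma unadjusted p = 0.105) and -0.17 ± 0.34 in KO (unadjusted p = 0.624). Neither passed, so a later start of the fall was not shown. Over 120 min the fall was 1.19 ± 0.14 in WT (2.29-fold; adjusted p = 1.22e-09) and 0.83 ± 0.14 in KO (1.77-fold; adjusted p = 1.97e-05). Across the family 5 of 6 probe sets fell over 120 min in WT, where 14% of all probe sets did, and 4 of 6 fell in KO, where 10.6% did. The count in WT was 3 of 6 without experiment 3 or without experiment 4, and that in KO was 2 of 6 without experiment 2.

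The arrays of Zfp36l2 at 0 min gave 11.56, 11.62, 11.42, 11.51 and 11.34 in WT, and 11.67, 11.71, 11.49 and 11.17 in KO experiments 1 to 4. The lines overlapped, with the lowest array of all in KO experiment 4. At 120 min the WT arrays gave 10.24, 10.51, 10.56, 9.85 and 10.32, and the KO arrays 11.08, 10.70, 10.67, 10.44 and 10.54. KO was higher in each experiment, by 0.11 to 0.84, although the lowest KO arrays lay within the WT range. Experiment 1 had the widest gap, 0.84, and experiment 4 the lowest array in both lines.

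Group means of Zfp36l2 were 11.49 ± 0.11, 11.39 ± 0.15, 11.14 ± 0.27, 10.79 ± 0.22 and 10.30 ± 0.28 in WT from 0 to 120 min (SD, n = 5 each). In KO they were 11.51 ± 0.25 (n = 4), 11.37 ± 0.28 (n = 5), 11.24 ± 0.19 (n = 4), 10.92 ± 0.17 (n = 5) and 10.68 ± 0.24 (n = 5). At 0 min the lines differed by 0.022 (95% interval -0.27 to 0.31; limma adjusted p = 0.940). At 30, 60 and 90 min the estimates were -0.025, 0.10 and 0.13, and none passed. At 120 min KO was higher by 0.39 ± 0.14 (1.31-fold; adjusted p = 0.0234), where 18.7% of all probe sets were called higher. Without experiment 1 that difference was 0.28 (adjusted p = 0.201), and after quantile normalisation 0.34 (adjusted p = 0.0594).

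For the decay of Zfp36l2 the estimate was slower in KO, and the test of that difference did not pass. The fitted WT slope was -0.60 log2 per h (a halving every 100.4 min), the KO slope -0.42 (141.3 min), and they differed by 0.17 ± 0.089 log2 per h (95% interval -0.0058 to 0.35; limma adjusted p = 0.601). From 30 to 120 min KO fell less by 0.41 ± 0.19 (95% interval 0.029 to 0.80; unadjusted p = 0.0356, adjusted p = 1.00). Fitted with the experiment as a block, these adjusted p-values were 0.157 for the slope and 0.165 for the 30 to 120 min change, on the same side of the threshold. With the 5th percentile subtracted, 37.6% of the starting Zfp36l2 signal was left at 120 min in WT and 52.1% in KO.

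**Figure D4:**
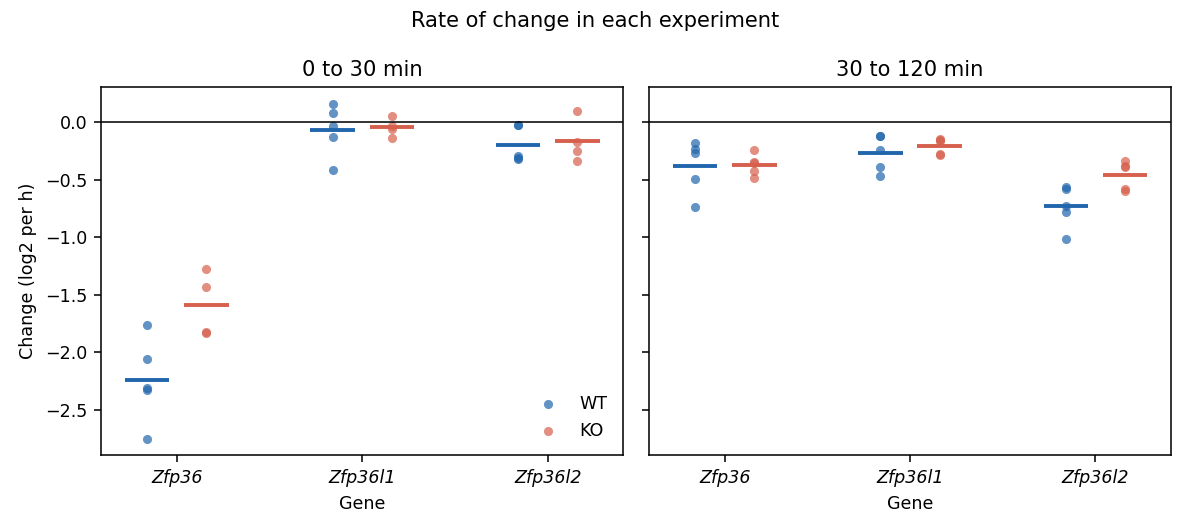
Change per hour in log2 signal (vertical axis) from 0 to 30 min (left) and from 30 to 120 min (right) for the main probe sets of Zfp36, Zfp36l1 and Zfp36l2; points are experiments (5 in each line, 4 in KO for the first interval) and bars are their means. Zfp36 has the steepest early points in both lines. In the later interval Zfp36l2 lies below Zfp36l1, with its KO mean above its WT mean. The later points of Zfp36 are limited by the floor and are not ranked against the others.

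The further probe sets of Zfp36l2 moved less, and several of their calls were lost without single experiments. Their signal lay nearer the floor than that of the main probe set. With the 5th percentile subtracted, the 0 to 120 min estimates were -0.92 in WT and -0.40 in KO for 1451034_at. They were -0.50 and -0.57 for 1439054_at, and -1.41 and -0.94 for the main probe set. In 1451034_at the estimate from 0 to 120 min was -0.45 ± 0.16 in WT (limma adjusted p = 0.0329), lost without experiment 1, 2, 3 or 4 (adjusted p up to 0.187), and -0.19 ± 0.17 in KO (adjusted p = 0.470), and the WT arrays at 0 min alone ran from 8.65 to 9.74. In 1439054_at it was -0.16 ± 0.054 in WT (adjusted p = 0.0218) and -0.21 ± 0.058 in KO (adjusted p = 0.00620), with group means between 8.59 and 8.81. Its WT call was lost without experiment 3 (-0.078; adjusted p = 0.213) or 4 (-0.14; adjusted p = 0.166), and its KO call without experiment 2 (-0.18; adjusted p = 0.0676). As straight lines, 1451034_at fell by 0.23 log2 per h in WT (adjusted p = 0.00839; 0.0531 without experiment 2), and 1439054_at by 0.096 in WT (adjusted p = 0.00197) and 0.092 in KO (adjusted p = 0.00491; 0.0554 without experiment 2). Fitted over all arrays without a block, neither passed a difference between the lines at any time, and at 120 min the KO minus WT estimates were 0.15 and -0.0026. The 30 min estimate of 1439054_at was -0.13, lower in KO (adjusted p = 0.0622), and it passed with the experiment as a block (adjusted p = 0.0330), without experiment 3 (0.0182), in experiments 4 and 5 alone (0.0184) and on the arrays of 30 min alone (0.0297). With the block 1451034_at passed for the WT change from 30 to 120 min (-0.32; adjusted p = 0.0314). Over the alternatives run, KO minus WT of 1451034_at at 120 min ran from 0.095 to 0.39 and passed in none. The call for Zfp36l2 at 120 min therefore stands on its main probe set.

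Counted over the family, 2 of 6 probe sets were called higher in KO at 0 min, both of Zfp36l1, against 13.4% of all probe sets, and 1 was called lower, that of Zfp36. At 30 min 2 of 6 differed, both higher in KO. Of all 27500 probe sets 3992 were higher at that time, and 26.5% differed in either direction. Called higher in KO were 2 of 6 at 60 min (10.8% of all were higher), 1 of 6 at 90 min (13.8% higher) and 3 of 6 at 120 min (18.7% higher). Without experiment 1 the last count was 1 of 6. At 0 min 1 was called higher without experiment 1, 2 or 4 and 0 lower without experiment 3. At 30 min without experiment 3, 1 was higher and 1 lower, and at 60 min 1 was higher without experiment 2, 4 or 5. In the tests of the line difference itself 0 of 6 passed by limma: for the change from 0 to 30 min, where 0.0327% of all probe sets passed and 2 of 6 had an unadjusted p under 0.05 (Zfp36 and 1439054_at, in opposite directions), for the change from 30 to 120 min (0.244% of all; 1 of 6, Zfp36l2) and for the slope (1.04% of all; 0 of 6). With the experiment as a block 16, 189 and 534 probe sets passed these tests, against 9, 67 and 285 without it, and 0 of the 6 of the family was among them (adjusted p of 0.157 or higher). The shared controls mean that the 0 min samples of each line enter every one of the changes from 0 min.

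The levels of the paralogues also differed between the experiments. In experiments 4 and 5 the main probe set of Zfp36l2 lay lower than in experiments 1 to 3 by a mean of 0.29 in WT and 0.36 in KO, at 5 of 5 times in each line. Zfp36l1 lay higher there, by 0.12 in WT and 0.22 in KO, also at 5 of 5 times. These shifts ran the same way in both lines. The KO minus WT difference of Zfp36l1 averaged 0.38 over the 15 pairs of experiments 1 to 3 and 0.49 over the 8 pairs of experiments 4 and 5. A term for a change of the line difference between the experiment sets, added after the data were seen, passed for 0 of the 6 probe sets (limma adjusted p from 0.247 to 0.974; 0 of 6 had an unadjusted p under 0.05), while 16.1% of all probe sets passed it.

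The members followed each other to different degrees over the groups. Over the 10 group means, Pearson's r between main probe sets was 0.32 for Zfp36 and Zfp36l1, 0.73 for Zfp36 and Zfp36l2 and 0.67 for Zfp36l1 and Zfp36l2; these points share lines, times and experiments, and r is given as a description. Among 461 genes whose group means spanned at least 1 log2 unit, those most like Zfp36 were Trib1 (r = 0.993), Snai1 (0.987), Adamts1 (0.986), Clk1 (0.982) and Sertad1 (0.978). Most like Zfp36l1 were Gfod1, Ankrd50 and Gna13 (0.987 each), Bdnf (0.979) and Klf4 (0.978). All were higher in KO at 0 and at 120 min in their group means. They were chosen by r over these same means, so that is no separate result. Most like Zfp36l2 were Nup153 (0.997), Xbp1 (0.992), Pdcd4 (0.989), Dlc1 (0.989) and Zswim6 (0.988). An r above 0.9 was reached by 47 of the 461 genes with Zfp36, 60 with Zfp36l1 and 87 with Zfp36l2.

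Zfp36 fell in the same interval as many immediate-early genes. Of 25 serum-induced immediate-early genes, 17 fell in the first 30 min in WT and 12 in KO, where 1.56% and 0.953% of all genes fell (medians -0.66 and -0.51; median over all genes 0.010 and -0.0025). Over 120 min 24 of 25 fell in each line, against 16.4% of all genes in WT and 12.3% in KO. The first 30 min took Myc down by 1.13 in WT and 0.93 in KO, Ier2 by 1.25 and 1.17, and Fos by 0.98 and 0.75, next to the 1.12 and 0.85 of Zfp36. Zfp36l1 and Zfp36l2 did not pass in this interval. At 0 min 6 of the 25 were higher and 7 lower in KO, where 16.0% of all genes were higher and 13.0% lower. Only some of those called are named here: Dusp1 (1.12 higher), Egr2 (0.71 lower) and Srf (0.29 lower). The slope differed for 4 of the 25 genes. Ier3 (0.88) and Mcl1 (0.30) had a less steep slope in KO, and Dusp1 (-0.57) and Klf2 (-0.25) a steeper one. These slopes are of unsubtracted log2 signal, so a difference at 0 min, as for Dusp1, or a signal near the floor can enter them. Of all genes 1.08% had a slope difference above 0 and 0.323% below 0 by this test.

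The partners of TTP in decay were measured with the same fit. Of 19 genes of CCR4-NOT and other deadenylation factors, 9 were higher and 3 lower in KO at 0 min, where 16.0% of all 13018 genes were higher and 13.0% lower, with a list median of 0.18 against 0.014 over all genes. The higher ones were the deadenylase subunits Cnot6 (0.18), Cnot6l (0.40), Cnot7 (0.29) and Cnot8 (0.20), Cnot3 (0.21), Pan3 (0.27), Tnks1bp1 (0.22) and the antiproliferative Btg1 (0.45) and Tob2 (0.30); Cnot11 (-0.19), Cnot10 (-0.13) and Pan2 (-0.15) were lower. Only Tob1 passed the slope difference (0.21 ± 0.056 log2 per h, less steep in KO, limma adjusted p = 0.0379). Cnot1, the scaffold that TTP binds, had no probe set of that single symbol. Of 21 decapping and exosome genes 5 were higher (Exosc8, Edc4, Exosc9, Exosc10 and Lsm1, 0.19 to 0.55) and 2 lower (Ddx6 by 0.27 and Edc3 by 0.19), against the same shares of all genes, and 0 passed the slope difference.

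Other proteins that bind AU-rich elements, and the kinases that control TTP, were called in both directions at 0 min. Of 15 such binding and decay-regulating proteins 2 were higher in KO (Cpeb4 0.41 and Khsrp 0.14) and 2 lower (Igf2bp3 -0.48 and Zc3h12a -0.34), shares near the 16.0% and 13.0% of all genes. Elavl1, whose protein HuR stabilises many of the same mRNAs, differed by 0.067 (limma adjusted p = 0.514). Among 20 kinases, phosphatases and 14-3-3 genes 5 were higher (Dusp1 1.12, Ywhah 0.36, Ppp2cb 0.27, Mapkapk5 0.17 and Ppp2ca 0.13) and 1 lower (Map2k1 -0.16), against those 16.0% and 13.0%. Mapkapk2, whose kinase phosphorylates TTP and holds it inactive, differed by -0.13 (adjusted p = 0.221), and Mapk14, encoding p38 alpha upstream of it, by 0.0067 (adjusted p = 0.965). Dusp1, a phosphatase that turns p38 off, was the one gene of that list with a slope difference.

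**Figure D5:**
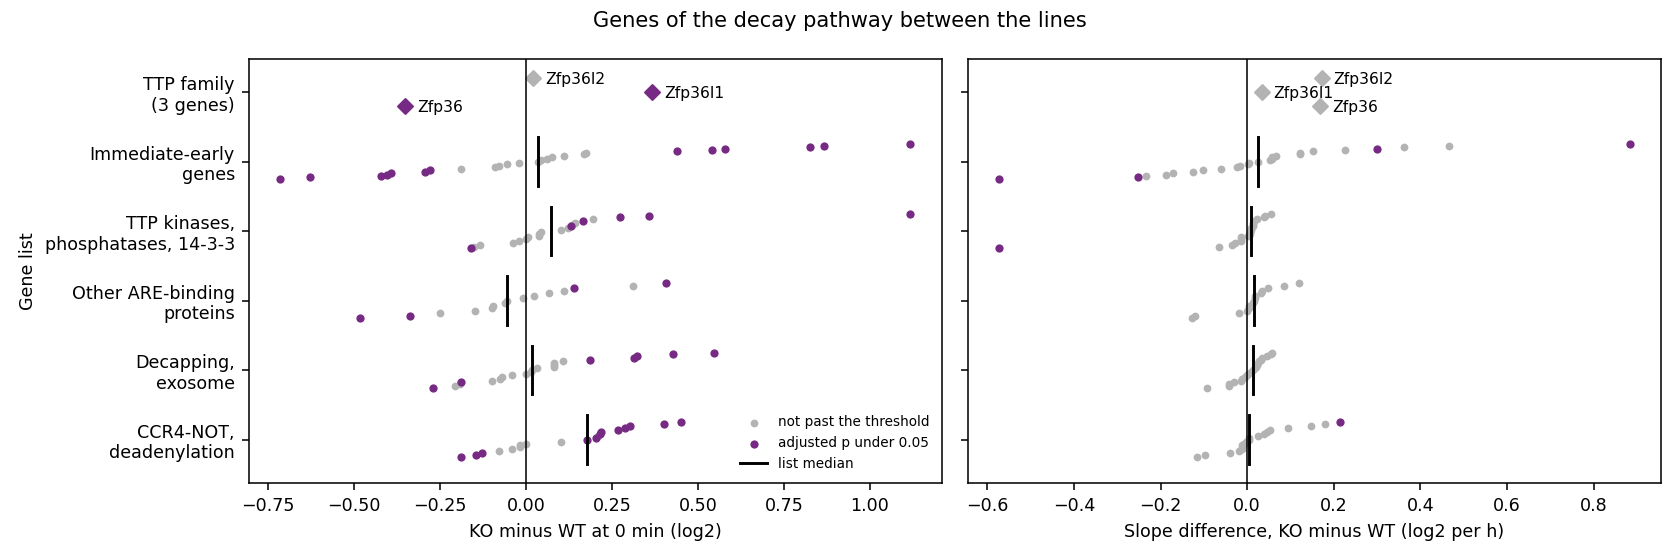
KO minus WT at 0 min (left, log2) and slope difference KO minus WT (right, log2 per h) of the TTP family (diamonds) and of 5 gene lists (points; bars are list medians); purple marks an adjusted p under 0.05. Zfp36l1 lies to the right of the deadenylation list's median of 0.18 at 0 min, Zfp36 to the left of 0, and the 3 diamonds on the right are grey.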

How the data were processed

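RNA of 48 cultures was measured on Affymetrix Mouse Genome 2.0 arrays, read with GeneChip Operating Software 1.2.0.037 per the labels. The deposited values are log2 signals per probe set. The authors' probe summary and normalisation were not given in the sources used here; base 2 was inferred from the highest value, 13.43. The deposited scaling was kept. Without the 64 control probe sets, 27500 exceeded the median of their array on 4 or more arrays and entered the tests: 23140 with 1 gene symbol, 681 with several and 3679 with none.

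limma 3.58.1 (R 4.3.3), with intensity trend and robust empirical Bayes, was fitted over all arrays with 1 mean per group, and separately with an intercept and slope per line. Tests were two-sided with Benjamini-Hochberg adjustment over all probe sets at 0.05; the code was tested on simulated data. A gene's value in a list is that of its probe set with the highest mean. A fold against a mean at or under the floor is given as at least so large. Arrays carry no read depth; their number limits the precision. Named genes were the members, the 5 genes most like each by Pearson's r, list genes called at 0 min or in slope, and Mapkapk2, Mapk14, Dusp1, Cnot1, Elavl1 and Khsrp. Of the immediate-early genes called at 0 min only some are named. Myc, Ier2, Fos and Tubb3 were named after their values were seen. The members and lists were chosen with earlier results of these data known. Promoters and coordinates come from RefSeq tables (GRCm38.p6).

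Experiment numbers pair the lines by day, per the series text. Deviations from group means correlated with a median of 0.17 in 23 same-number pairs of WT and KO arrays (-0.25 to 0.60) and -0.074 in 92 other pairs. Alternatives were an experiment block, each experiment left out, experiments 1 to 3 or 4 and 5 alone, other probe sets, background subtraction, quantile normalisation, other filters, fits on the compared arrays alone and a slope over 0 to 60 min. The stricter filter, above the array median on 24 or more arrays, left out Zfp36.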

Additional observations from a re-analysis of the deposited data

Results flagged for a closer look

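In 3 of the 60 groups of the 6 probe sets 1 array stood far from the others of its group, about the share that chance gives (1 in 20). The Zfp36 signal of KO experiment 3 at 0 min was 9.28, while the other 3 KO arrays lay between 9.58 and 9.60. The second probe set of Zfp36l1, 1422528_a_at, read 9.30 in WT experiment 3 at 30 min, where the other 4 WT arrays lay between 9.76 and 9.92. Probe set 1451034_at of Zfp36l2 read 8.91 in KO experiment 4 at 0 min, and the other 3 KO arrays lay between 9.15 and 9.20.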

How the results depend on the processing

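For the main probe sets, 682 of 713 alternative values kept their side of the threshold. A change of sign was not counted where neither value passed. Such changes occurred, as for Zfp36 KO minus WT at 30 min, which ran from -0.18 to 0.082. Of the other values, 30 kept their direction and no longer passed, and 1 turned the sign of a result that had passed. The cause was not tested. KO minus WT at 0 min for Zfp36 became -0.52 with background subtraction and did not pass. In experiments 4 and 5 alone, where KO at 0 min has only the array of experiment 4, it was -0.17. With single experiments left out it ran from -0.42 to -0.28. The KO slope of Zfp36 was -0.57 in experiments 4 and 5. Zfp36l1 measured by 1422528_a_at gave -0.28 (30 to 120 min) and -0.33 (0 to 120 min) in WT, -0.36 and -0.34 in KO, a WT slope of -0.13 and 0.22 for KO minus WT at 90 min. Experiments 4 and 5 alone gave Zfp36l1 in KO -0.22 from 30 to 120 min and a slope of -0.12. From 0 to 120 min they gave -0.23, with only the array of experiment 4 at 0 min. With single experiments left out these KO changes ran from -0.33 to -0.27 and from -0.35 to -0.27. Over 0 to 60 min only, the slopes were -0.13 (WT) and -0.049 (KO) for Zfp36l1, and -0.35 (WT) and -0.27 (KO) for Zfp36l2. Zfp36l2 measured by 1451034_at gave -0.32 in WT and -0.26 in KO from 30 to 120 min, and -0.19 from 0 to 120 min in KO. Its KO slope there was -0.12, and KO minus WT at 120 min was 0.15. Probe set 1439054_at gave -0.087 from 30 to 120 min in KO. For KO minus WT at 120 min it gave -0.0026, the value that turned the sign of a passing result. In the main probe set of Zfp36l2 that difference was 0.34 with quantile normalisation and 0.41 in experiments 4 and 5. It ran from 0.28 to 0.46 with single experiments left out. The replicate block left the calls of the main probe sets as they were. It raised the counts over all probe sets from 351 to 582 (0 to 30 min, KO), 3035 to 4883 (30 to 120 min, KO), 285 to 534 (slope difference), 9 to 16 (line difference, 0 to 30 min) and 67 to 189 (30 to 120 min). Over the alternatives run, other counts that moved by more than 1.5 times lay at 175 to 1007 against 498 (0 to 30 min, WT), at least 148 (0 to 30 min, KO), at least 2252 against 3508 (30 to 120 min, WT), at least 1974 (30 to 120 min, KO), at least 3079 against 6192 (0 to 120 min, KO), at least 1895 against 7982 (slope, WT), at least 1132 against 7512 (slope, KO), at least 14 (slope difference), and at least 2 and 21 (line differences). Signal over background limits Zfp36, which lay next to the floor from 90 min on.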
